A study of Mus musculus with 9 samples.

Results

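The genes described here are the collagens, proteoglycans, matrix glycoproteins, elastic fibre proteins and matrix proteases of mouse quadriceps muscle, 44 of the 13116 genes in the table. They were chosen by name from a list of 45 symbols; the symbol Ccn2 is not a name in the table, which holds the gene under its older symbol Ctgf with the same Ensembl identifier, so Ctgf is given beside the 44 and is not counted among them. By role they are 6 fibrillar collagens, 9 basement membrane components, 6 microfibrillar and fibril-associated collagens, 6 proteoglycans, 6 matrix glycoproteins, 5 elastic fibre and crosslinking genes and 6 proteases and inhibitors. All 44 passed the filter on low values. RNA of quadriceps muscle was sequenced from 9 male mice, all 18 months old, in 3 groups of 3 mice with 1 library each. WT_PBS mice were wild type and received phosphate-buffered saline. KO_PBS mice carried the GAA KO genotype, a knockout of acid alpha-glucosidase, and received the same saline. KO_secGAA mice had the GAA KO genotype and received the vector AAV8-sp7-delta8-hGAAco, which provides secreted acid alpha-glucosidase, the enzyme that breaks down glycogen in lysosomes. Injection was intravenous in the tail when the mice were 9 months old, and 9 months passed before the quadriceps was collected. The title of the series places the expression in the liver; the sources used here do not give the strain of the mice or the promoter of the vector. The GAA KO genotype is a mouse model of Pompe disease, in which glycogen accumulates in the lysosomes of muscle.

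The extracellular matrix of skeletal muscle holds the fibres together and carries force from them to the tendon. A basement membrane of type IV collagen, laminins, nidogen and perlecan wraps each fibre, and a looser interstitial matrix of fibrillar collagens lies between the fibres. Small leucine-rich proteoglycans such as decorin, biglycan and lumican bind collagen fibrils and set their spacing, matrix metalloproteinases cut matrix proteins, and the TIMP proteins inhibit these proteases. Fibroblasts make most of the interstitial matrix, and the same genes are read as markers of fibrosis when muscle is diseased.

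Values are normalized counts, which are reads scaled for the size of each library. The libraries held 9299156 to 15957106 reads in the table, and 1 read was worth 0.0652 to 0.0922 normalized counts. Gaa, the targeted gene, stood at 296, 129 and 264 normalized counts in WT_PBS, 17.8, 14.5 and 14.02 in KO_PBS, with 15.1, 15.6 and 16.6 in KO_secGAA, with no overlap between wild type and either knockout group. A gene is said to have risen or fallen where the adjusted p of limma, over 13089 genes tested, was under 0.05, and log2 fold changes are on the log2(normalized count + 0.5) scale. The p-values test a difference of group means against the spread between mice within groups, estimated over all 3 groups together. In bulk muscle, fewer cells of a type and less RNA per cell cannot be told apart.

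In the KO_PBS muscle a small set of matrix genes was higher than in wild type, led by the protease inhibitor Timp1 (8.62-fold), the proteoglycans Lum (2.94-fold) and Bgn (1.87-fold), the type VIII collagen Col8a1 (1.83-fold), the protease Mmp2 (1.60-fold) and the laminin chain Lamb2 (1.41-fold). Ogn, Eln and Timp4 fell. Of the 44 genes 6 rose and 3 fell, and 35 did not pass; among all genes tested 10.9% rose and 11.0% fell. The genes called in either direction were thus 20.5% of the matrix genes and 21.9% of all genes tested, so the share called was near that of all genes. The median log2 fold change was 0.30 over the 44 genes and 0.01 over all genes tested; over the 44 it was 0.12 without KO_PBS 2. DESeq2 called 8 risen, the 6 with Col6a3 and Timp2, where it called 11.1% of all genes tested risen. The 3 KO_PBS libraries lay wholly above or wholly below the 3 WT_PBS libraries for 12 of the 44 genes (27.3%, 9 higher and 3 lower), against 39.7% of all genes tested (20.7% higher and 19.0% lower).

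In KO_secGAA muscle against KO_PBS muscle 5 matrix genes fell, and none rose. The 5 were Timp1, Lum, Bgn, Mmp2 and the fibrillar collagen Col1a2, and they make up 11.4% of the 44 genes, against 2.31% of all genes tested that fell and 1.37% that rose. At an unadjusted p under 0.05 the test found 1 gene higher and 11 lower, a count with no share of all genes beside it. Both edgeR and limma voom also called 5 fallen and 0 risen, where 2.13% and 2.19% of all genes tested fell. DESeq2 called 8 fallen and 1 risen, where 3.42% of all genes tested fell and 2.67% rose. The median log2 fold change was -0.32 over the 44 genes and 0.00 over all genes tested; over the 44 it was -0.16 without KO_PBS 2 and -0.18 without KO_secGAA 3. The group mean of KO_secGAA was below that of KO_PBS in 39 of 44 genes (88.6%, against 49.7% of all genes tested). Libraries of these groups did not overlap for 13 genes (29.5%, 1 higher and 12 lower), against 24.0% of all genes tested (11.7% higher and 12.3% lower). Both comparisons use the same KO_PBS libraries, so a high value in those mice enters both.

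Against wild type, the KO_secGAA muscle differed in 1 matrix gene, Ogn, which fell. No matrix gene rose by limma, edgeR, DESeq2 or limma voom. At an unadjusted p under 0.05 limma found 1 higher and 5 lower, again with no share of all genes beside these counts. Ogn is 2.27% of the 44 genes, against 3.72% of all genes tested that changed in either direction. The median log2 fold change was -0.06, and its sign was not stable: it was 0.09 when the scaling factors were left out and 0.04 without WT_PBS 2 or without KO_secGAA 3, while it was -0.12 without KO_secGAA 2 and -0.03 without WT_PBS 1. The libraries did not overlap for 6 genes, of which 5 were lower and 1, Timp1, was higher, against 26.9% of all genes tested (13.3% lower and 13.5% higher). Of the 44 genes 34 passed the test in none of the 3 comparisons. Among the medians of the 7 roles given below, leaving out 1 mouse turned the sign of 0 in KO_PBS against WT_PBS, of 1 in KO_secGAA against KO_PBS (the elastic fibre genes, without KO_PBS 2) and of 4 in KO_secGAA against WT_PBS (all but the fibrillar collagens, the elastic fibre genes and the proteases and inhibitors).

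**Figure D1:**
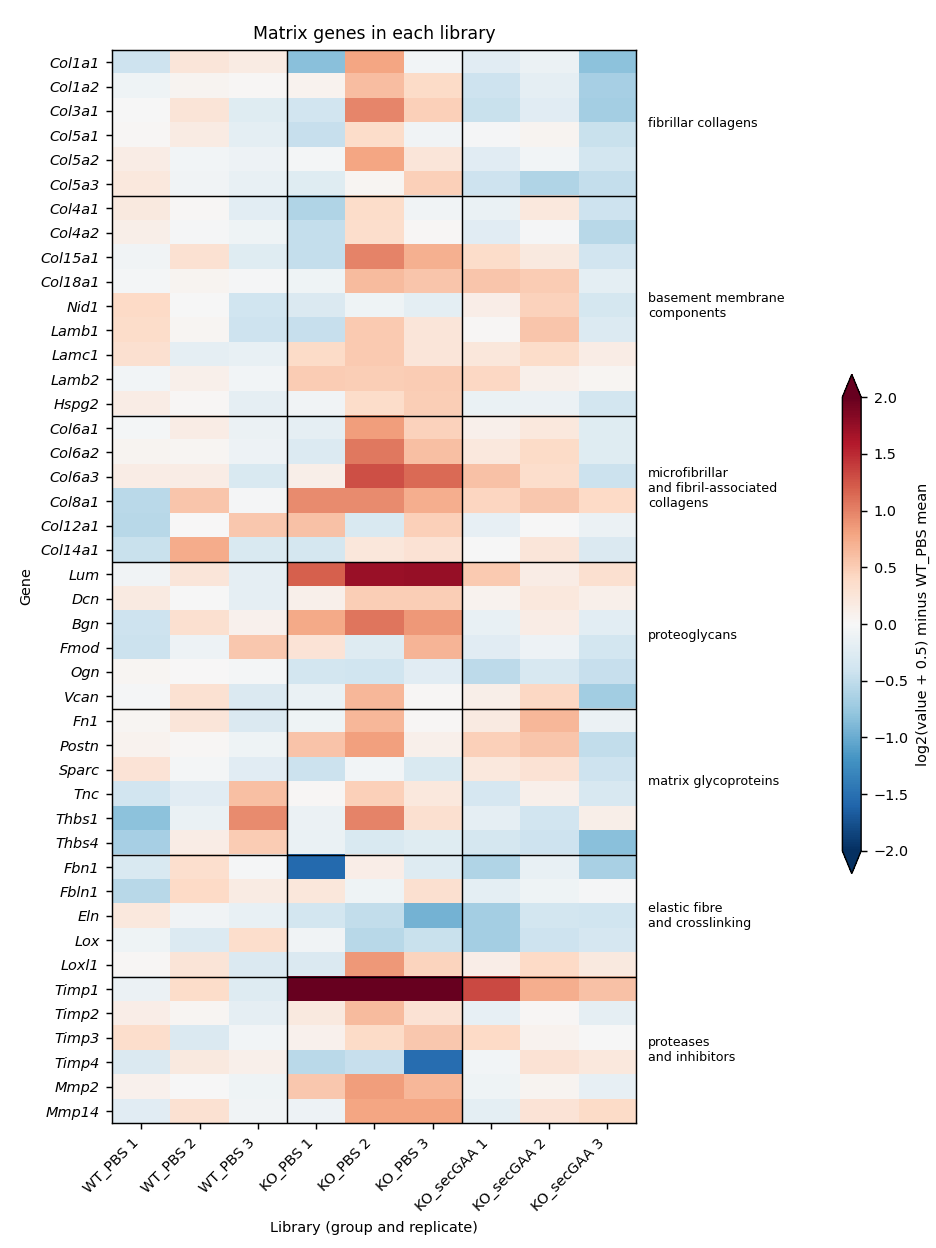
Each row is a matrix gene, grouped by role, and each column is a library; the colour gives log2(normalized count + 0.5) minus the mean of the 3 WT_PBS libraries, on a scale that ends at 2 and -2. Timp1 and Lum are high in all 3 KO_PBS libraries, while the type VI collagen chains, Col3a1 and Col15a1 are high in KO_PBS 2 and KO_PBS 3 and not in KO_PBS 1.

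Levels were compared between genes per kb of merged exons, in normalized counts. In WT_PBS muscle the highest was decorin, Dcn, at 41.7 ± 5.19 (mean ± SD, n = 3), followed by Sparc at 38.03 ± 6.88, a collagen-binding glycoprotein, and Thbs4 at 31.2 ± 11.7, a thrombospondin of muscle and tendon. The SDs of these neighbours in the order overlap. Timp2, Fmod, Lamb2, Ogn and Col4a1 came next, from 25.4 down to 11.5. The lowest were Col12a1 at 0.372, Col8a1 at 0.292 and Vcan at 0.232. Timp1 was among the lowest in WT_PBS at 0.782 ± 0.322; in KO_PBS it was at 11.6 ± 5.88, and in KO_secGAA at 1.93 ± 0.716. Lum went from 8.43 ± 1.37 in WT_PBS to 25.3 ± 5.14 in KO_PBS. Col1a1 and Col1a2, the chains of type I collagen, stood at 6.26 ± 1.44 and 7.73 ± 0.386 in WT_PBS.

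**Figure D2:**
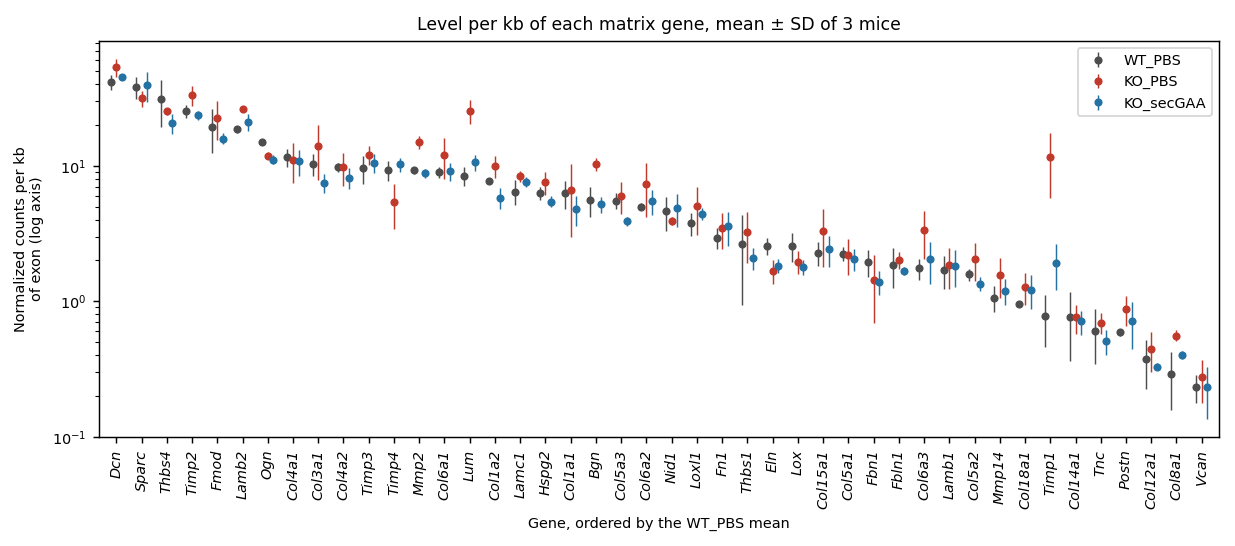
Points are the mean and bars the SD of 3 mice in normalized counts per kb of merged exons, on a log axis, with the genes ordered by the WT_PBS mean. Timp1 and Lum are the genes whose KO_PBS point stands farthest above the WT_PBS point, and Dcn is at the top of the order in all 3 groups.

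The proteases and inhibitors held the largest difference. Timp1 (chrX:20870166-20874735, + strand, GRCm38) encodes a secreted inhibitor of matrix metalloproteinases. It was at 0.583, 1.02 and 0.481 normalized counts in WT_PBS, 7.73, 16.4 and 6.94 in KO_PBS, and after the vector 2.44, 1.44 and 1.26 in KO_secGAA. The lowest KO_PBS value was above every value of the other groups, and the KO_secGAA values were all above those of WT_PBS. The group means were 0.694 ± 0.286, 10.3 ± 5.22 and 1.72 ± 0.636 (SD, n = 3). Timp1 rose in KO_PBS with a log2 fold change of 3.11 ± 0.34 (SE, adjusted p = 0.000298) and fell in KO_secGAA against KO_PBS with one of -2.23 ± 0.34 (SE, adjusted p = 0.00898). Against wild type the KO_secGAA value was 0.88 ± 0.34 (SE, adjusted p = 0.172), with a 95% interval of 0.12 to 1.64. The fewest reads behind a value were 6, so the fold depends on the added constant. Its log2 fold change in KO_PBS was 3.67 with 0.1 added and 2.12 with 2 added, and the group means themselves differ 14.9-fold.

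Mmp2 (chr8:92827291-92853420, + strand), a gelatinase that cuts denatured collagen and type IV collagen, was at 33.1, 31.02 and 29.4 in WT_PBS, 45.5, 55.99 and 49.7 in KO_PBS, with 29.4, 32.4 and 27.7 in KO_secGAA. The KO_PBS mice stood above the mice of both other groups, which overlapped each other. Its log2 fold change was 0.68 ± 0.10 (SE, adjusted p = 0.00173) in KO_PBS against WT_PBS, -0.75 ± 0.10 (SE, adjusted p = 0.00598) in KO_secGAA against KO_PBS and -0.06 ± 0.10 (SE, adjusted p = 0.76) in KO_secGAA against WT_PBS. The interval of the last was -0.30 to 0.17. Mmp14, the membrane-bound protease that activates the MMP2 proenzyme, was at 5.24, 7.83 and 5.88, 5.77, 11.2 and 11.2 and 5.39, 7.65 and 8.32 in the same order of groups. KO_PBS 1 lay among the WT_PBS mice for this gene, and the log2 fold change of 0.49 (adjusted p = 0.218) did not pass the test.

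Timp4 (chr6:115241892-115252205, - strand), an inhibitor expressed in muscle and heart, went the other way. It was at 44.3, 62.01 and 58.2 in WT_PBS, 37.2, 39.2 and 18.5 in KO_PBS, with 52.1, 66.3 and 62.9 in KO_secGAA. The 3 KO_PBS mice were below all others, and KO_PBS 3 was far below the other two. The log2 fold change in KO_PBS was -0.84 ± 0.26 (SE, adjusted p = 0.0413). The call was lost when 1 mouse was left out, with adjusted p values of WT_PBS 2 (0.12), WT_PBS 3 (0.121), KO_PBS 3 (0.062), KO_secGAA 1 (0.0512), KO_secGAA 2 (0.0556) and KO_secGAA 3 (0.0551); it was also lost without scaling factors (0.0989), without the trend (0.0673) and with only 2 groups in the fit (0.0709). In KO_secGAA against KO_PBS it was 0.99 ± 0.26 (SE, adjusted p = 0.0675), with a 95% interval of 0.42 to 1.56, and this did not pass with limma; DESeq2 gave an adjusted p of 0.00589. Timp2, at 108, 101 and 87.3, 113, 153 and 121 and 88.1, 100.4 and 86.7, had log2 fold changes of 0.37 (adjusted p = 0.0641) in KO_PBS and -0.48 (adjusted p = 0.0759) in KO_secGAA against KO_PBS, neither past the threshold with limma; DESeq2 called both, with adjusted p values of 0.0461 and 0.0184. Timp3 was at 0.34 (adjusted p = 0.204) in KO_PBS. It shares exon sequence with Syn3 on the opposite strand, and it is not stated that reads were counted by strand, so reads in that overlap cannot be told apart. Over the 6 genes the median log2 fold changes were 0.43 in KO_PBS against WT_PBS, -0.41 in KO_secGAA against KO_PBS and 0.15 in KO_secGAA against WT_PBS; 2 rose and 1 fell in the first, 2 fell in the second, and none passed in the third by any of limma, edgeR, DESeq2 and limma voom (1 higher at an unadjusted p under 0.05).

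Timp1 and Bgn are both X-linked and were both called in the same 2 comparisons, so the 250 bases upstream of each start are printed from RefSeq (GRCm38.p6), 5′ to 3′ on the plus strand. Capitals mark matches, on either strand, of the GC box, spelled GGGCGG. They also mark those of the CCAAT box, whose letters are its name. The windows are chrX:20869916-20870165 for Timp1 and chrX:73483351-73483600 for Bgn.
Timp1: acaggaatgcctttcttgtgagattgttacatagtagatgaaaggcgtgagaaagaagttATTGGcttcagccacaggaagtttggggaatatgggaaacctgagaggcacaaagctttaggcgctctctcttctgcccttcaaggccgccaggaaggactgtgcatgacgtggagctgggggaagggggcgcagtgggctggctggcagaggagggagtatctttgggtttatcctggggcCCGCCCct
Bgn: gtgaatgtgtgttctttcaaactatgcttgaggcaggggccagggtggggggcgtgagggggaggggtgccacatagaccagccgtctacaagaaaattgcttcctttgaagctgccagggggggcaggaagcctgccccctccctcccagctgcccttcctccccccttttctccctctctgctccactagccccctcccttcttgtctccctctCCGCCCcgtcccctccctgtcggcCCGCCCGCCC
The Timp1 window has 54.4% G and C, 1 CCAAT box 190 bases before the start and 1 GC box 8 bases before it. The Bgn window has 64.4% G and C and 3 GC boxes, the last 2 of which overlap. Neither holds an AP-1 element, searched on both strands as TGANTCA. Neither holds a TATA box, searched likewise as TATAAA. A gene was counted where any of its windows matched, while the share of the table was counted over single windows. RefSeq windows, 36 in all, were matched for 31 of the 44 genes. A GC box was found in 20 of these 31 and in 32.7% of the 32851 windows of the table, a CCAAT box in 11 and in 33.8%, a TATA box in 4 and in 12.4%, and an AP-1 element in 1 (Col6a1) and in 6.75%. A match is a run of letters and not a measured site.

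Among the proteoglycans, Lum (chr10:97565128-97572703, + strand), which encodes lumican, a keratan sulfate proteoglycan of collagen fibrils, was at 19.4, 24.4 and 18.03 normalized counts in WT_PBS, 47.5, 68.7 and 69.9 in KO_PBS, with 29.6, 22.7 and 25.7 in KO_secGAA. The KO_PBS mice stood above all others, and the KO_secGAA and WT_PBS mice overlapped. The group means were 20.6 ± 3.36, 62.04 ± 12.6 and 26.00 ± 3.48 (SD, n = 3). Lum rose in KO_PBS with a log2 fold change of 1.56 ± 0.17 (SE, adjusted p = 0.000331), and in KO_secGAA it was 2.34-fold lower than in KO_PBS, a log2 fold change of -1.23 ± 0.17 (SE, adjusted p = 0.00643). Its log2 fold change in KO_secGAA against WT_PBS was 0.33 ± 0.17 (SE, adjusted p = 0.303), with a 95% interval of -0.06 to 0.72. Both calls of Lum held in all 20 alternative analyses, as did those of Timp1 and Mmp2.

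Bgn (chrX:73483602-73495933, + strand), biglycan, a chondroitin or dermatan sulfate proteoglycan close in structure to decorin, was at 24.9, 41.6 and 35.1 in WT_PBS, 56.6, 69.9 and 60.8 in KO_PBS, with 29.7, 36.7 and 28.6 in KO_secGAA. Every KO_PBS mouse was above every other mouse. The log2 fold changes were 0.90 ± 0.18 (SE, adjusted p = 0.00647) in KO_PBS, -0.97 ± 0.18 (SE, adjusted p = 0.0199) in KO_secGAA against KO_PBS and -0.07 ± 0.18 (SE, adjusted p = 0.854) in KO_secGAA against WT_PBS. The fall in KO_secGAA was not called when 1 of 4 mice was left out, with adjusted p values of KO_PBS 2 (0.08), KO_PBS 3 (0.0593), KO_secGAA 1 (0.058) and KO_secGAA 3 (0.0718). Decorin, Dcn, was at 275, 241 and 215, 259, 341 and 339.8 and 254, 282 and 261; its log2 fold change of 0.36 ± 0.13 (SE, adjusted p = 0.0732) in KO_PBS, with a 95% interval of 0.07 to 0.64, did not pass.

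Ogn (chr13:49608046-49624501, + strand), osteoglycin or mimecan, a leucine-rich proteoglycan like the others, was at 39.5, 38.6 and 37.5 in WT_PBS, 29.8, 29.04 and 32.7 in KO_PBS, with 26.7, 30.9 and 27.9 in KO_secGAA. All 6 knockout mice were below all 3 wild-type mice. The log2 fold change was -0.33 ± 0.09 (SE, adjusted p = 0.0253) in KO_PBS, -0.43 ± 0.09 (SE, adjusted p = 0.0324) in KO_secGAA against WT_PBS, and -0.10 ± 0.09 (SE, adjusted p = 0.604) between the knockout groups. Both calls are small and were lost in several alternatives. In KO_PBS the adjusted p was above 0.05 without scaling factors (0.884) and when 1 mouse was left out, for WT_PBS 1 (0.0642), WT_PBS 2 (0.0678), WT_PBS 3 (0.063), KO_PBS 1 (0.0675) and KO_PBS 2 (0.0883). In KO_secGAA against WT_PBS it was above 0.05 without scaling factors (0.128), without the trend (0.0591) and with only 2 groups in the fit (0.0563) and without any 1 mouse of those 2 groups, for WT_PBS 1 (0.066), WT_PBS 2 (0.0873), WT_PBS 3 (0.0999), KO_secGAA 1 (0.0971), KO_secGAA 2 (0.0555) and KO_secGAA 3 (0.0627). Fibromodulin, Fmod, was at 45.5, 57.2 and 89.6, 74.7, 51.3 and 99.1 and 52.8, 57.1 and 47.7, with the groups overlapping. Versican, Vcan, a large proteoglycan, had a log2 fold change of 0.19 (adjusted p = 0.716) in KO_PBS. Of the 6 proteoglycans 2 rose and 1 fell in KO_PBS, 2 fell in KO_secGAA against KO_PBS and 1 fell against WT_PBS. Their median log2 fold changes in these comparisons were 0.29, -0.35 and -0.06, the last of which was 0.09 without scaling factors.

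Fibrillar collagens form the load-bearing fibrils of the interstitial matrix. None of the 6 passed the test in KO_PBS against WT_PBS by limma, edgeR, DESeq2 or limma voom (1 was higher at an unadjusted p under 0.05), and their median log2 fold change was 0.21. Col1a2 (chr6:4504814-4541544, + strand), the alpha-2 chain of type I collagen, was at 90.7, 99.8 and 97.8 in WT_PBS, 101, 147 and 125 in KO_PBS, with 72.1, 84.6 and 60.2 in KO_secGAA. The groups did not overlap in any pair, with KO_PBS highest and KO_secGAA lowest. In KO_PBS its log2 fold change of 0.35 ± 0.15 (SE, adjusted p = 0.123) did not pass. In KO_secGAA against KO_PBS it fell, with a log2 fold change of -0.77 ± 0.15 (SE, adjusted p = 0.0261), a value 1.71-fold lower. That call was lost when 1 mouse was left out, with adjusted p values of WT_PBS 3 (0.0501), KO_PBS 2 (0.0852), KO_PBS 3 (0.0766), KO_secGAA 1 (0.0623) and KO_secGAA 3 (0.0794); it was also lost without the trend (0.0562) and with only 2 groups in the fit (0.0586). Against wild type it was -0.42 ± 0.15 (SE, adjusted p = 0.144).

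The partner chain of type I collagen, Col1a1, was at 30.3, 47.9 and 45.04 in WT_PBS, 22.4, 70.3 and 38.8 in KO_PBS, with 34.4, 37.02 and 22.6 in KO_secGAA. The KO_PBS mice held both the lowest and the highest value of all 9, and the log2 fold change was -0.03 ± 0.36 (SE, adjusted p = 0.964), with a 95% interval of -0.84 to 0.78. Col3a1, type III collagen, was at 99.2, 120.0 and 84.2, 76.8, 197 and 139 and 73.1, 85.4 and 62.5. KO_PBS 1 was below all WT_PBS mice for Col3a1 and the other two KO_PBS mice were above them. The log2 fold change of Col3a1 was 0.36 ± 0.29 (SE, adjusted p = 0.417) in KO_PBS and -0.81 ± 0.29 (SE, adjusted p = 0.165) in KO_secGAA against KO_PBS, with an interval of -1.45 to -0.16 for the latter. The type V chains, which nucleate type I fibrils, had log2 fold changes in KO_secGAA against KO_PBS of -0.08 (adjusted p = 0.885) for Col5a1, -0.55 (adjusted p = 0.158) for Col5a2 and -0.59 (adjusted p = 0.0981) for Col5a3. Over the 6 fibrillar collagens the median was -0.57 in KO_secGAA against KO_PBS and -0.40 in KO_secGAA against WT_PBS; 1 fell in the former (3 by DESeq2), and in the latter none passed by any of the 4 tools, with 2 lower at an unadjusted p under 0.05.

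Of the 9 basement membrane components 1 rose in KO_PBS, and in the other comparisons none passed by limma, edgeR, DESeq2 or limma voom. At an unadjusted p under 0.05, 2 were lower in KO_secGAA against KO_PBS and 0 either way against WT_PBS. Lamb2 (chr9:108479736-108490530, + strand), the laminin beta-2 chain, enriched at the neuromuscular junction, was at 109, 121 and 109 in WT_PBS, 160.2, 158 and 160.4 in KO_PBS, with 150.3, 121 and 116 in KO_secGAA. The KO_PBS mice lay close together and above all others. The log2 fold change was 0.50 ± 0.10 (SE, adjusted p = 0.00758) in KO_PBS, a 1.41-fold difference that held in all 20 alternatives. In KO_secGAA against KO_PBS it was -0.31 ± 0.10 (SE, adjusted p = 0.134), and against WT_PBS 0.19 ± 0.10 (SE, adjusted p = 0.326). Lamc1, the gamma-1 chain shared by most laminins, was at 66.2, 46.3 and 47.7, 69.2, 76.2 and 62.7 and 61.97, 68.4 and 58.5; its log2 fold change in KO_PBS of 0.39 (adjusted p = 0.0754) did not pass. Lamb1 was at 0.10 (adjusted p = 0.833). The type IV collagen chains Col4a1 and Col4a2 had log2 fold changes of -0.10 (adjusted p = 0.787) and -0.04 (adjusted p = 0.913) in KO_PBS, with 95% intervals of -0.62 to 0.42 and -0.48 to 0.41. These 2 genes lie head to head and share annotated exon sequence on opposite strands, so reads in the overlap cannot be assigned without strand. Hspg2, perlecan, was at 99.2, 90.5 and 78.9, 85.04, 116 and 125 and 81.5, 82.5 and 69.4, with a log2 fold change of -0.47 (adjusted p = 0.126) in KO_secGAA against KO_PBS. Col15a1, Col18a1 and Nid1 had log2 fold changes of 0.41, 0.36 and -0.19 in KO_PBS, with adjusted p of 0.44, 0.307 and 0.593. The median over the 9 was 0.27 in KO_PBS against WT_PBS, -0.14 in KO_secGAA against KO_PBS and 0.08 in KO_secGAA against WT_PBS.

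Type VI collagen forms beaded microfilaments around the basement membrane of muscle fibres. Its chains were higher in 2 of the 3 KO_PBS mice than in wild type. Col6a3 was at 23.1, 23.01 and 16.7 in WT_PBS, 22.4, 51.3 and 45.8 in KO_PBS, with 31.4, 26.4 and 15.2 in KO_secGAA, Col6a1 at 38.1, 43.2 and 36.01, 34.3, 69.8 and 53.8 and 41.98, 44.98 and 33.04, and Col6a2 at 43.02, 42.9 and 38.8, 34.2, 86.8 and 63.2 and 47.97, 54.1 and 35.1. For each of the 3 chains KO_PBS 2 was the highest of the 9 mice and KO_PBS 3 the second highest, while KO_PBS 1 did not exceed the highest wild-type mouse. The log2 fold changes in KO_PBS were 0.84 (adjusted p = 0.0983) for Col6a3, 0.37 (adjusted p = 0.27) for Col6a1 and 0.46 (adjusted p = 0.287) for Col6a2, none past the threshold with limma; DESeq2 called Col6a3 risen (adjusted p = 0.0189). Col8a1 (chr16:57624258-57754737, - strand), a short-chain collagen of vessel walls, was at 1.34, 3.41 and 2.11, 4.599, 4.61 and 3.91 and 3.09, 3.37 and 2.99, with the 3 KO_PBS mice above the rest. It rose in KO_PBS with a log2 fold change of 0.87 ± 0.25 (SE, adjusted p = 0.0337), and was at -0.42 ± 0.25 (SE, adjusted p = 0.417) in KO_secGAA against KO_PBS. The rise was not called when 1 mouse was left out, with adjusted p values of WT_PBS 1 (0.0812), WT_PBS 3 (0.0935), KO_PBS 1 (0.082), KO_PBS 2 (0.0981) and KO_PBS 3 (0.0587), nor under quantile normalization (0.0573), with only 2 groups in the fit (0.0645) and by edgeR (0.0542). Col12a1 and Col14a1, which bind the surface of fibrils, were at 0.26 and 0.06 in KO_PBS. Of the 6 collagens of this group 1 rose in KO_PBS. In the other comparisons none passed by any of the 4 tools, nor at an unadjusted p under 0.05 by limma (0 of 6). The medians were 0.41, -0.35 and 0.07.

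None of the 6 matrix glycoproteins passed the test in any comparison by limma, edgeR, DESeq2 or limma voom, nor at an unadjusted p under 0.05 by limma (0 of 6). Periostin, Postn, was at 5.38, 5.23 and 4.77 in WT_PBS, 7.86, 9.42 and 5.56 in KO_PBS, with 7.33, 7.74 and 3.495 in KO_secGAA, with a log2 fold change in KO_PBS of 0.50 ± 0.28 (SE, adjusted p = 0.233) and a 95% interval of -0.12 to 1.12. Fibronectin, Fn1, had a log2 fold change of 0.20 (adjusted p = 0.596) in KO_PBS, and tenascin C, Tnc, one of 0.24 (adjusted p = 0.562). Sparc was at 173, 138 and 121, 105, 137 and 115 and 165, 175 and 107 and Thbs4 at 61.5, 108 and 138, 88.8, 78.9 and 82.5 and 76.1, 73.3 and 54.4, in the same order of groups. When WT_PBS 1, the lowest wild-type mouse for Thbs4, was left out, limma called Thbs4 fallen in both knockout groups against WT_PBS. Thbs1, which can activate latent TGF-beta, was at 7.71, 12.8 and 27.6 in WT_PBS and at 12.9, 28.4 and 17.6 in KO_PBS, with overlap. Ctgf, the gene matched by identifier to Ccn2 and known as a target of TGF-beta signalling, was at 12.6, 22.9 and 44.8, 50.2, 30.9 and 11.8 and 41.5, 28.8 and 26.3. The 3 groups of Ctgf overlapped, and the adjusted p was 0.853 in KO_PBS against WT_PBS and 0.843 in KO_secGAA against KO_PBS. The medians over the 6 glycoproteins were 0.22, -0.31 and -0.06 in the 3 comparisons, the last of which was 0.10 without scaling factors.

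The elastic fibre and crosslinking genes were the only role of the 7 whose median log2 fold change in KO_PBS was below 0, at -0.36 over 5 genes, and at -0.06 without scaling factors. Eln (chr5:134702593-134747323, - strand), tropoelastin, was at 24.1, 19.7 and 18.5 in WT_PBS, 15.8, 14.6 and 10.5 in KO_PBS, with 12.8, 15.95 and 15.6 in KO_secGAA. Both knockout groups lay below wild type and overlapped each other. Eln fell in KO_PBS with a log2 fold change of -0.60 ± 0.17 (SE, adjusted p = 0.0303); the value in KO_secGAA against WT_PBS was -0.48 ± 0.17 (SE, adjusted p = 0.14), and between the knockout groups 0.12 ± 0.17 (SE, adjusted p = 0.743). The call in KO_PBS was lost when 1 mouse was left out, with adjusted p values of WT_PBS 1 (0.0894), WT_PBS 2 (0.0613), WT_PBS 3 (0.0509), KO_PBS 2 (0.0558) and KO_PBS 3 (0.0858), and without scaling factors (0.167). Lox, the lysyl oxidase that crosslinks collagen and elastin, was at 11.3, 9.87 and 15.5, 11.4, 7.998 and 8.69 and 7.33, 8.87 and 9.48, with a log2 fold change of -0.36 (adjusted p = 0.209) in KO_PBS. Loxl1, a related oxidase of elastic fibres, was at 0.35 (adjusted p = 0.376). Fbn1, fibrillin-1 of elastic microfibrils, was at 18.6, 29.5 and 22.8 in WT_PBS and at 7.600, 25.5 and 19.3 in KO_PBS, where mouse 1 was far below the rest; the log2 fold change was -0.56 (adjusted p = 0.313). Fbln1, fibulin-1, was at 0.15 (adjusted p = 0.665). In KO_secGAA the medians over the 5 were -0.10 against KO_PBS and -0.47 against WT_PBS. None passed there by any of the 4 tools, with 0 and 2 lower at an unadjusted p under 0.05.

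**Figure D3:**
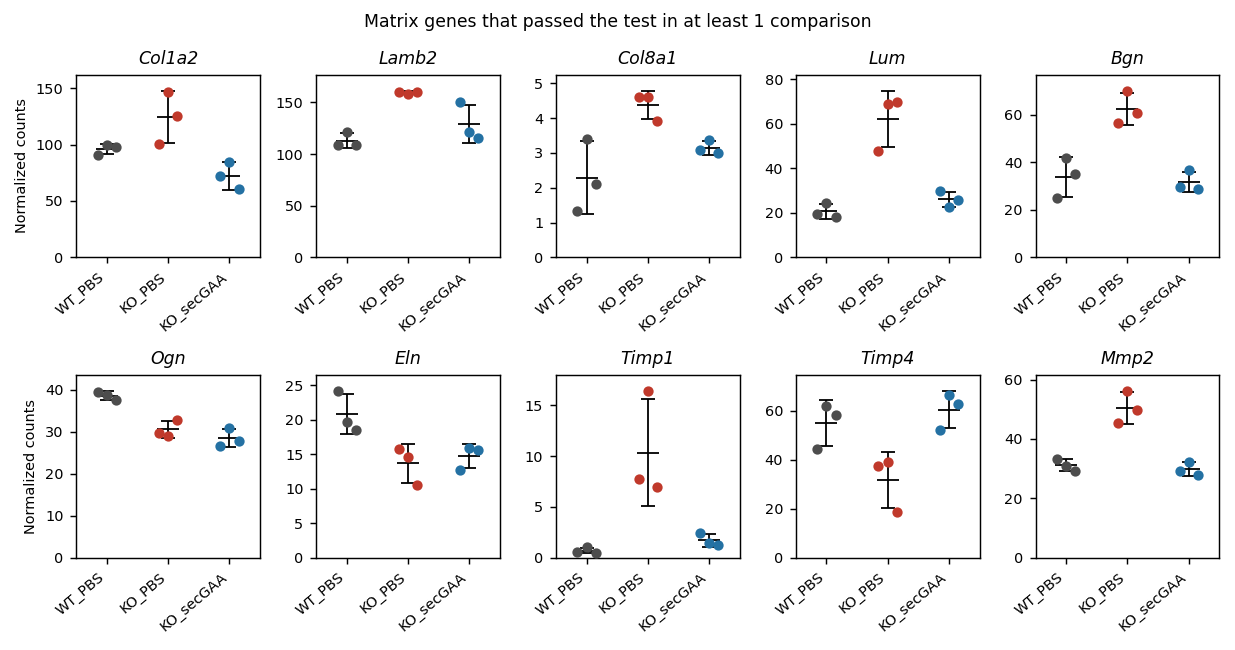
Each panel is a matrix gene that passed the test in at least 1 comparison; points are the normalized counts of single mice, and the black marks are the mean and SD of 3 mice, on an axis from 0. For Lum, Bgn, Timp1 and Mmp2 the KO_PBS points stand above both other groups, while for Ogn and Eln both knockout groups stand below WT_PBS.

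**Figure D4:**
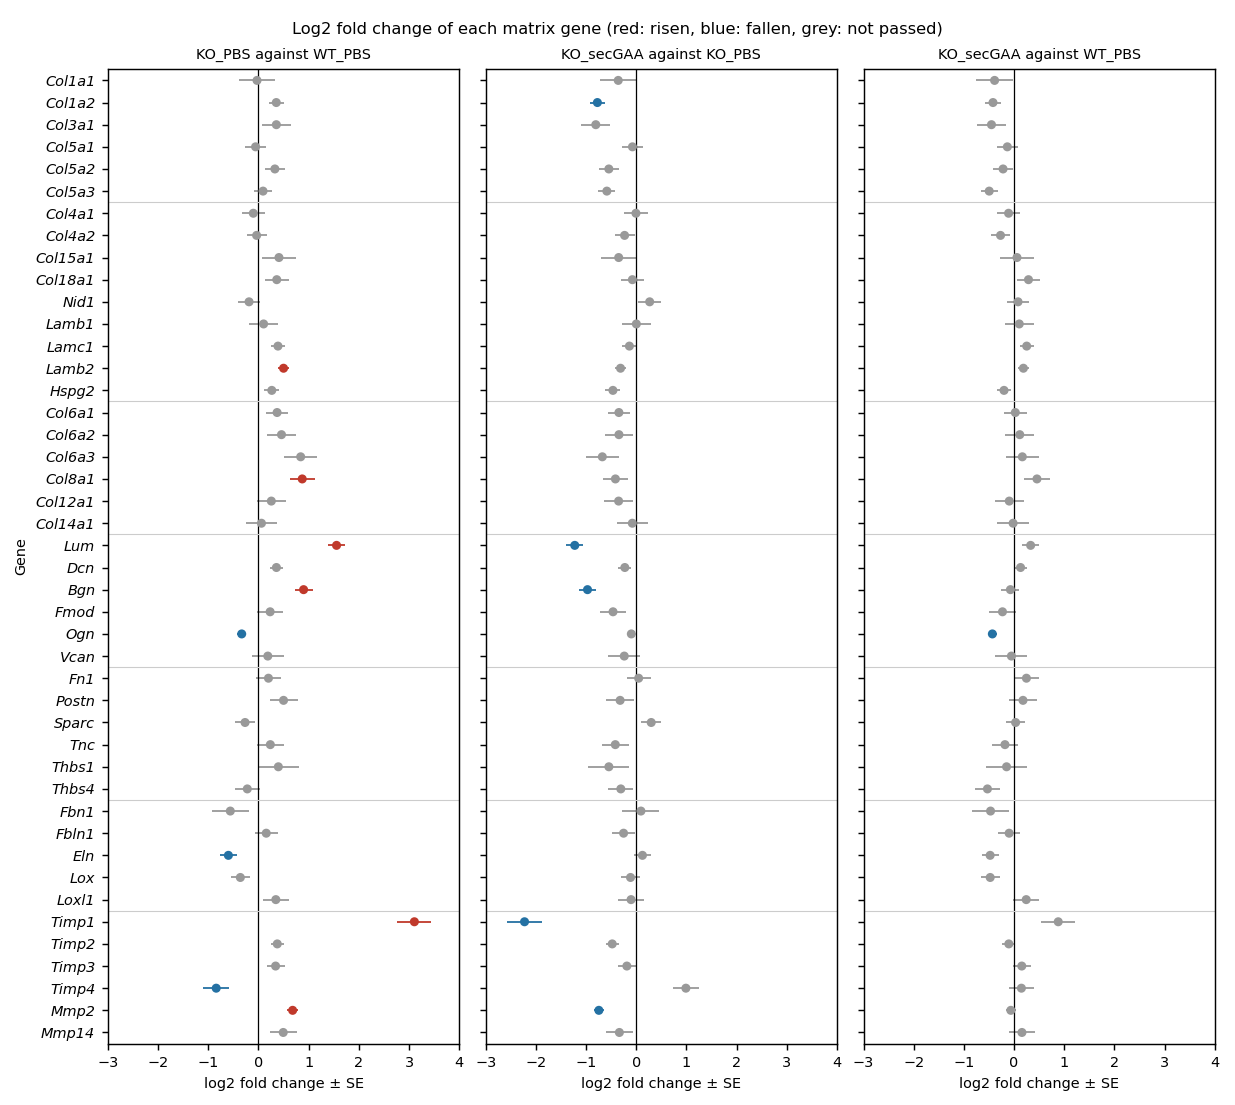
Points are the log2 fold change of each matrix gene on the log2(normalized count + 0.5) scale and bars are 1 SE of the limma fit, in the 3 comparisons, with thin lines between roles. The 6 red points of KO_PBS against WT_PBS include the 3 largest, Timp1, Lum and Bgn, and in KO_secGAA against KO_PBS most points lie left of 0.

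The matrix genes had a wide spread between mice of the same group. Over the 44 genes the median SD of log2 values within a group was 0.27 in WT_PBS, 0.38 in KO_PBS and 0.24 in KO_secGAA, and over all genes tested it was 0.17, 0.17 and 0.18. The same mice tended to be high or low for most of the genes. KO_PBS 1 was the lowest of its group for 31 of the 44 genes (70.5%, against 34.5% of all genes tested) and KO_PBS 2 the highest for 30 (68.2%, against 31.6%). Among KO_secGAA mice, number 2 was the highest for 31 genes (70.5%, against 32.6%) and number 3 the lowest for 31 (70.5%, against 35.0%). Among WT_PBS mice, number 2 was the highest for 20 (45.5%, against 34.2%) and number 3 the lowest for 25 (56.8%, against 30.4%). Counted as reads without scaling factors, the 44 genes took 0.203%, 0.299% and 0.280% of KO_PBS 1, 2 and 3. These shares were 0.182%, 0.181% and 0.164% in the WT_PBS mice and 0.198%, 0.207% and 0.157% in the KO_secGAA mice. In normalized counts KO_PBS 1 lay within the range of the WT_PBS mice. There the 44 genes summed to 1905, 2697 and 2399 in KO_PBS. The sums were 1991, 2012 and 1877 in WT_PBS and 1914, 2052 and 1631 in KO_secGAA. Averaged over the 6 fibrillar collagens, log2 values relative to the WT_PBS mean were -0.32, 0.59 and 0.24 in KO_PBS mice 1, 2 and 3 but -0.29, -0.19 and -0.57 in KO_secGAA mice 1, 2 and 3.

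Leaving out KO_PBS 1 changed the count of matrix genes that rose in KO_PBS from 6 to 16, while the share of all genes tested that rose went from 10.9% to 9.29%. Of the 6, 5 remained and Col8a1 was lost. The 11 that were gained were Col1a2, Col3a1, Col6a1, Col6a2, Col6a3, Col15a1, Hspg2, Dcn, Loxl1, Mmp14 and Timp2. Without this mouse the fallen matrix genes in KO_PBS were 2, Ogn being lost, and in KO_secGAA against KO_PBS 7 fell, the 5 named above with Col3a1 and Hspg2. Leaving out KO_PBS 2, KO_PBS 3 or KO_secGAA 3 left 3 fallen in that comparison. The falls in KO_PBS against WT_PBS were 1 without KO_PBS 2 or KO_PBS 3 and 0 without WT_PBS 2 or WT_PBS 3. Without scaling factors, that is with each library scaled by its total reads alone, 16 matrix genes rose in KO_PBS and 0 fell, while 34.1% of all genes tested rose. This scaling moves the median log2 fold change of all genes tested to 0.31 and that of the matrix genes to 0.61, and rises become 89.6% of all calls in place of 49.9%.

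**Figure D5:**
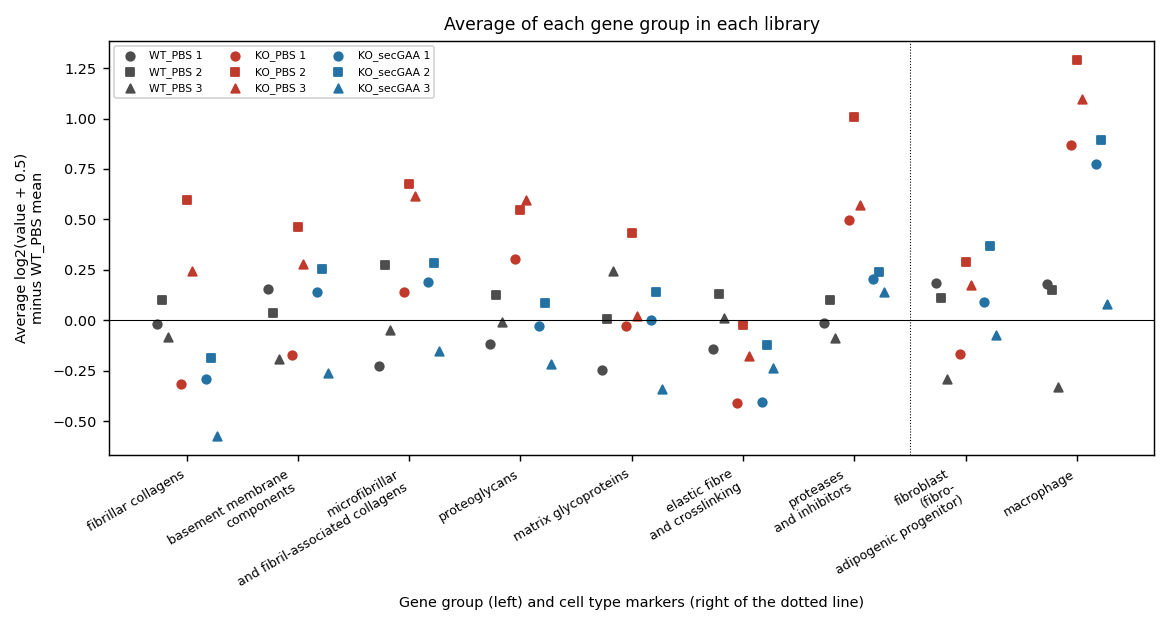
Points are the average over the genes of a role, or over the markers of a cell type right of the dotted line, of log2(normalized count + 0.5) minus the WT_PBS mean, 1 point per mouse. KO_PBS 2 is the highest KO_PBS mouse in 6 of the 7 matrix roles and KO_PBS 1 the lowest in all 7; all 3 KO_PBS mice are above the WT_PBS mice for the proteoglycans, the proteases and inhibitors and the macrophage markers.

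Markers of other cells were read in the same libraries. In KO_PBS 47.4% of the macrophage markers and 6.25% of the fibroblast markers rose, against 10.9% of all genes tested. In KO_secGAA against KO_PBS 10.5% of the macrophage markers fell, against 2.31% of all genes tested. Against WT_PBS 10.5% of them rose, against 1.83% of all genes tested. Of 19 macrophage markers tested 9 rose and none fell in KO_PBS, with a median log2 fold change of 0.98; in KO_secGAA against KO_PBS 2 fell, and against WT_PBS 2 rose, Mpeg1 and Cd68. By edgeR, DESeq2 and limma voom the falls were 2, 3 and 3 and the rises against WT_PBS 1, 4 and 0. The markers Lgals3 and Cd68 were at 3.35 (adjusted p = 4.64e-05) and 1.94 (adjusted p = 0.000383) in KO_PBS and -2.50 (adjusted p = 0.00229) and -0.99 (adjusted p = 0.042) in KO_secGAA against KO_PBS. The fall of Cd68 was lost without the trend (0.0629) and without WT_PBS 3 (0.0653), KO_PBS 1 (0.0832), KO_PBS 2 (0.14), KO_PBS 3 (0.101), KO_secGAA 1 (0.107), KO_secGAA 2 (0.0548) and KO_secGAA 3 (0.132), and its rise against WT_PBS (0.95 (adjusted p = 0.0469)) was lost in 13 of the 20 alternatives, 8 of them without 1 mouse. The summed level of the 19 markers was 138 to 212 normalized counts in WT_PBS, 407 to 542 in KO_PBS and 186 to 389 in KO_secGAA; none was at 0 in any library. Of 16 fibroblast markers 1, Smoc2, rose in KO_PBS (0.68 (adjusted p = 0.0145), a call lost without WT_PBS 3 (0.0619) and KO_PBS 2 (0.0522)), with a median of 0.07 over the list, and none passed by limma in KO_secGAA against either group (3 lower against KO_PBS and 1 higher against WT_PBS at an unadjusted p under 0.05, the latter comparison with 1 risen by DESeq2). Pdgfra, the receptor that defines fibro-adipogenic progenitors, was at 0.47 (adjusted p = 0.0752) in KO_PBS. The summed level of the fibroblast markers was 1008 to 1666 in WT_PBS, 1169 to 1523 in KO_PBS and 1178 to 1616 in KO_secGAA, and none was at 0. Within KO_PBS the fibroblast average followed the order of the matrix genes, at -0.17, 0.29 and 0.17 in mice 1, 2 and 3. In KO_secGAA it was 0.09, 0.37 and -0.07, also in their order. The macrophage average had the same order in both groups, at 0.87, 1.29 and 1.098 in KO_PBS and 0.78, 0.89 and 0.08 in KO_secGAA. So did the smooth muscle and pericyte average, at -0.06, 0.27 and 0.03 in KO_PBS and 0.11, 0.13 and 0.03 in KO_secGAA. The endothelial and adipocyte averages had this order in KO_secGAA only, so the order was not particular to fibroblasts and macrophages. In WT_PBS neither the fibroblast nor the macrophage average followed the matrix genes. There the fibroblast average was 0.18, 0.11 and -0.29 and the macrophage average 0.18, 0.15 and -0.33. The average of the matrix genes was -0.07, 0.11 and -0.04 in these mice. The part of any of these cell types in the matrix values was not tested.

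Other cell types were read the same way in KO_PBS against WT_PBS. Of all genes tested 10.9% rose and 11.0% fell. Of 12 endothelial markers 5 fell (41.7%), and of 12 smooth muscle and pericyte markers 2 rose and 2 fell (16.7% each way). Tendon and cartilage genes had 1 of 9 risen, Cilp (1.37 (adjusted p = 0.00187)), and the tendon factor Scx fell in KO_secGAA against KO_PBS (-0.95 (adjusted p = 0.0348)). The call of Scx was lost without the trend (0.0505), with only 2 groups in the fit (0.055) and by limma voom (0.0573) and without WT_PBS 2 (0.0526), KO_PBS 2 (0.117), KO_PBS 3 (0.1), KO_secGAA 1 (0.0719), KO_secGAA 2 (0.116) and KO_secGAA 3 (0.0688). In the other lists, 1 of 10 adipocyte markers, Lipe, fell (10.0%), 1 of 10 Schwann cell markers, Slc2a1, rose (10.0%) and 2 of 7 satellite cell markers, Des and Cdh15, rose (28.6%). The call of Lipe was lost without scaling factors (0.111), without the trend (0.072) and by limma voom (0.0579). It was also lost without WT_PBS 1 or 2, any KO_PBS mouse, or KO_secGAA 1 or 2 (0.054 to 0.131). Des was not called without WT_PBS 3 (0.0619), KO_PBS 1 (0.0562) or KO_PBS 2 (0.0782). Cdh15 was not called without the trend (0.064), by DESeq2 (0.0624), or without KO_secGAA 1 (0.0591) or any WT_PBS or KO_PBS mouse (0.0725 to 0.129). The adipocyte and Schwann cell shares, and the 11.1% of tendon and cartilage genes that rose, were near those of all genes. Of 14 muscle fibre genes 2 rose (14.3%) and 5 fell (35.7%), with 8, 9 and 8 fallen by edgeR, DESeq2 and limma voom. Their summed level was 187296 to 220238 normalized counts in WT_PBS, 140320 to 156827 in KO_PBS and 168541 to 186904 in KO_secGAA. The sum over all genes was also lower in KO_PBS, at 855538 to 936932, against 1.09e+06 to 1.15e+06 in WT_PBS. The median log2 fold change of the 14 genes in KO_PBS was -0.41, against 0.01 over all genes tested, and 10 of the 14 were below 0. Their average log2 value relative to the WT_PBS mean, unlike the median, was not lower in KO_PBS. This average was 0.74, 0.22 and 0.13 in KO_PBS and -0.40, 0.47 and -0.07 in WT_PBS. In KO_secGAA against KO_PBS all 9 tendon and cartilage genes had log2 fold changes below 0, with a median of -0.43, and 11 of the 12 endothelial markers had values above 0, with a median of 0.36. Of these Scx alone passed by limma, and at an unadjusted p under 0.05 the lists held 2 lower and 4 higher. In the same comparison the medians were 0.26 over the muscle fibre genes, 0.85 over the adipocyte markers and -0.33 over the satellite cell markers. They were -0.16 over the Schwann cell markers and 0.03 over the smooth muscle and pericyte markers. By limma 1 adipocyte marker rose (10.0%) and 1 satellite cell marker, Cdh15, fell (14.3%). This fall was not called with only 2 groups in the fit (0.0581), or without any KO_PBS mouse (0.0564 to 0.0852), KO_secGAA 1 (0.062) or KO_secGAA 2 (0.0793). Of the smooth muscle and pericyte markers 1 rose and 1 fell (8.33% each way). Of all genes tested 1.37% rose and 2.31% fell. The adipocyte rise was not called by limma voom. The adipocyte sum was uneven between mice, at 400 to 1954 in WT_PBS, 530 to 979 in KO_PBS and 877 to 1748 in KO_secGAA. The part of these cells in the matrix values was not tested.

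Genes that make, sense and remodel the matrix were read from 6 further lists. Of all genes tested 21.9% were called in KO_PBS, and of these lists 20.8% of the collagen maturation enzymes, 25.0% of the TGF-beta ligands, receptors and SMAD genes, 33.3% of the matrix receptors, 30.8% of the other proteases and inhibitors and 17.9% of the other matrix proteins. Of 24 collagen maturation enzymes 3 rose and 2 fell in KO_PBS, and none passed by limma in the other comparisons. At an unadjusted p under 0.05, 1 was higher in KO_secGAA against KO_PBS, and 1 higher and 1 lower against WT_PBS, which DESeq2 called as 1 risen and 1 fallen. The risen ones were P4hb, the beta subunit of prolyl 4-hydroxylase (0.54 ± 0.10 (SE, adjusted p = 0.00375)), the prolyl isomerase Ppib (0.47 ± 0.12 (SE, adjusted p = 0.0252)) and the lysyl hydroxylase Plod3 (0.39 ± 0.10 (SE, adjusted p = 0.0256)). Adamts2, which removes the amino-terminal propeptide of procollagen, was at -0.57 ± 0.16 (SE, adjusted p = 0.0339), and Mia3, which loads procollagen for export from the endoplasmic reticulum, at -0.27 ± 0.08 (SE, adjusted p = 0.0468). Leaving out 1 mouse lost the calls of all but P4hb among these 5. The adjusted p values were WT_PBS 2 (0.0851), WT_PBS 3 (0.0872), KO_PBS 1 (0.0606) and KO_PBS 2 (0.0944) for Plod3, WT_PBS 2 (0.0769), WT_PBS 3 (0.0992), KO_PBS 2 (0.0929) and KO_PBS 3 (0.0572) for Ppib, WT_PBS 1 (0.0849), WT_PBS 2 (0.114), KO_PBS 1 (0.096), KO_PBS 2 (0.053) and KO_PBS 3 (0.073) for Adamts2, and WT_PBS 1 (0.115), WT_PBS 3 (0.144), KO_PBS 1 (0.0838), KO_PBS 2 (0.0815), KO_PBS 3 (0.133), KO_secGAA 1 (0.0567) and KO_secGAA 3 (0.0554) for Mia3. Adamts2 was also not called without scaling factors (0.271), and Mia3 was not called without scaling factors (0.661), under quantile normalization (0.0562), without the trend (0.0911), with only 2 groups in the fit (0.0597) and by edgeR (0.0527).

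TGF-beta is the main known inducer of fibrillar collagen genes, and it acts through receptors and SMAD proteins. Of 24 ligands, latency proteins, receptors and SMAD genes 4 rose and 2 fell in KO_PBS. Tgfb1, the ligand, was at 3.05, 4.67 and 3.59 in WT_PBS, 10.5, 17.1 and 10.7 in KO_PBS, with 13.7, 10.4 and 7.31 in KO_secGAA. It rose in KO_PBS (1.62 ± 0.26 (SE, adjusted p = 0.00222)) and in KO_secGAA against WT_PBS (1.34 ± 0.26 (SE, adjusted p = 0.0232)), and its value in KO_secGAA against KO_PBS was -0.28 ± 0.26 (SE, adjusted p = 0.611). The call against WT_PBS in KO_secGAA was lost without 1 mouse, for WT_PBS 1 (0.0531), WT_PBS 3 (0.0947), KO_secGAA 1 (0.0804) and KO_secGAA 2 (0.0907), and by limma voom (0.0556). Ltbp1, which tethers latent TGF-beta to the matrix, rose in KO_PBS (1.52 ± 0.22 (SE, adjusted p = 0.0013)), as did Tgif1, a SMAD co-repressor (1.94 ± 0.24 (SE, adjusted p = 0.000566)), and Tgfbr2, a receptor. Tgif1 was also higher in KO_secGAA than in WT_PBS (1.33 ± 0.24 (SE, adjusted p = 0.0176)), a call lost without WT_PBS 2 (0.0608), WT_PBS 3 (0.0837) and KO_secGAA 2 (0.0695). Smad6, an inhibitory SMAD, fell in KO_PBS (-0.91 ± 0.19 (SE, adjusted p = 0.00805)), and the ubiquitin ligase Smurf2 was at -0.55 ± 0.17 (SE, adjusted p = 0.0479). The call of Smurf2 was lost without scaling factors (0.277), without the trend (0.072), with only 2 groups in the fit (0.0682) and by edgeR (0.0526) and without WT_PBS 2 (0.151), WT_PBS 3 (0.11), KO_PBS 1 (0.113), KO_PBS 3 (0.148), KO_secGAA 1 (0.0504), KO_secGAA 2 (0.0573) and KO_secGAA 3 (0.0631). None of the 24 passed in KO_secGAA against KO_PBS. At an unadjusted p under 0.05 limma found 5 of them higher and 3 lower in that comparison, and DESeq2 called 2 risen.

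Of 14 genes known to respond to TGF-beta, none passed in any comparison by limma, edgeR or limma voom. DESeq2 called 1 risen in KO_PBS and 1 in KO_secGAA against WT_PBS, and at an unadjusted p under 0.05 limma found 3 higher and 1 lower in KO_PBS, 1 higher in KO_secGAA against KO_PBS and 3 higher against WT_PBS. Their median log2 fold changes were 0.02, 0.11 and 0.14.

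Of 24 matrix receptors 8 rose in KO_PBS and none fell by limma, edgeR, DESeq2 or limma voom (1 was lower at an unadjusted p under 0.05), with a median log2 fold change of 0.38. Integrin alpha-V, Itgav, which binds fibronectin and latent TGF-beta, was at 26.4, 31.7 and 29.6, 52.03, 58.3 and 55.3 and 41.98, 30.03 and 36.9 in WT_PBS, KO_PBS and KO_secGAA. Its log2 fold change was 0.91 ± 0.13 (SE, adjusted p = 0.0011) in KO_PBS, and it fell in KO_secGAA against KO_PBS (-0.61 ± 0.13 (SE, adjusted p = 0.0335)), a call that was lost without the trend (0.0638) and with only 2 groups in the fit (0.0586) and without WT_PBS 3 (0.06), KO_PBS 1 (0.0631), KO_PBS 2 (0.11), KO_PBS 3 (0.0853), KO_secGAA 2 (0.0892) and KO_secGAA 3 (0.0837). Itgb1, the beta chain shared by collagen and laminin receptors, rose by 0.58 ± 0.10 (SE, adjusted p = 0.00261), and Cd47, which binds thrombospondin-1, by 0.67 ± 0.12 (SE, adjusted p = 0.00344). The other five were Itga5, Itga7, Itga9, Sdc2 and Cd44. No receptor passed in KO_secGAA against WT_PBS by limma, edgeR or limma voom; DESeq2 called 2 risen, and at an unadjusted p under 0.05 limma found 8 higher.

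Among 26 other matrix proteases and inhibitors 6 rose and 2 fell in KO_PBS. Adam19 (1.14 ± 0.17 (SE, adjusted p = 0.00144)) and Adam8 (1.39 ± 0.27 (SE, adjusted p = 0.00552)), membrane-bound metalloproteases, and Ctsk (0.98 ± 0.23 (SE, adjusted p = 0.0137)), a collagen-degrading cathepsin, were the 3 risen genes with the smallest p; Mmp12, Adam10 and Plau were the other three. The call of Ctsk was lost without WT_PBS 3 (0.0529) and KO_PBS 2 (0.0564). Mmp9, the second gelatinase beside Mmp2, went in the other direction from Mmp2. It was at 3.46, 3.197 and 1.89 in WT_PBS, 0.6198, 0.906 and 0.138 in KO_PBS, with 0.691, 0.481 and 0.5405 in KO_secGAA. It fell in KO_PBS (-1.71 ± 0.33 (SE, adjusted p = 0.00603)) and in KO_secGAA against WT_PBS (-1.62 ± 0.33 (SE, adjusted p = 0.0324)). The lowest value, in KO_PBS 3, rests on 1 read, under the floor of 3, so these folds depend on the added constant: with 0.1 and with 2 added they were -2.36 and -0.92 in KO_PBS and -2.10 and -0.90 in KO_secGAA against WT_PBS. The latter call was lost with 0.1 added (0.0605) and by limma voom (0.0585) and without WT_PBS 1 (0.0719), WT_PBS 2 (0.0964), WT_PBS 3 (0.0621), KO_secGAA 1 (0.0753), KO_secGAA 2 (0.112) and KO_secGAA 3 (0.0576). Adam9 fell in KO_PBS (-0.45 ± 0.08 (SE, adjusted p = 0.00286)), a call lost without scaling factors (0.142). In KO_secGAA against KO_PBS no gene of the list passed by limma; 1 was higher and 6 were lower at an unadjusted p under 0.05, and DESeq2 called 1 fallen.

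Of 56 other matrix proteins 6 rose and 4 fell in KO_PBS, and the median log2 fold change was 0.01. Lama2, the laminin alpha-2 chain of the muscle fibre basement membrane, was at 27.5, 31.9 and 25.7 in WT_PBS, 46.4, 58.6 and 47.9 in KO_PBS, with 36.9, 32.9 and 37.3 in KO_secGAA. It rose in KO_PBS (0.83 ± 0.12 (SE, adjusted p = 0.00122)), and was at -0.50 ± 0.12 (SE, adjusted p = 0.0489) in KO_secGAA against KO_PBS; that second call was lost without any 1 of the 9 mice (adjusted p from 0.0534 to 0.157), and also with 0.1 added (0.0512), under quantile normalization (0.0534), without the trend (0.0909), with only 2 groups in the fit (0.0722), by edgeR (0.0515) and by limma voom (0.0514). Fbln7, a fibulin, rose in KO_PBS (1.38 ± 0.22 (SE, adjusted p = 0.00246)) and fell in KO_secGAA against KO_PBS (-1.12 ± 0.22 (SE, adjusted p = 0.0306)), the latter lost without WT_PBS 3 (0.0549), KO_PBS 2 (0.0971), KO_PBS 3 (0.0892), KO_secGAA 1 (0.0637), KO_secGAA 2 (0.058) and KO_secGAA 3 (0.0957). Col24a1, a minor fibrillar collagen, was at 3.26, 5.59 and 6.63, 14.8, 14.5 and 34.2 and 21.2, 21.2 and 26.6. It rose in KO_PBS (1.87 ± 0.33 (SE, adjusted p = 0.00357)) and in KO_secGAA against WT_PBS (2.10 ± 0.33 (SE, adjusted p = 0.0115)), and the values of the 2 knockout groups overlapped. The 3 fallen genes with the smallest p were Gpc3, a glypican (-0.85 ± 0.22 (SE, adjusted p = 0.024)), Col7a1, the anchoring fibril collagen (-0.77 ± 0.21 (SE, adjusted p = 0.0257)), and Wisp2, of the same family as Ctgf (-0.85 ± 0.23 (SE, adjusted p = 0.0268)). None of these 3 falls was called without scaling factors, with adjusted p values of 0.0985, 0.125 and 0.066, nor without certain mice. These were WT_PBS 1 (0.0738), WT_PBS 2 (0.069), KO_PBS 1 (0.072) and KO_PBS 2 (0.0558) for Gpc3, WT_PBS 1 (0.0752), WT_PBS 3 (0.0805) and KO_PBS 2 (0.072) for Col7a1, and WT_PBS 1 (0.0594), WT_PBS 2 (0.0766), WT_PBS 3 (0.0707), KO_PBS 2 (0.0908) and KO_PBS 3 (0.085) for Wisp2.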

How the data were processed

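Polyadenylated RNA was sequenced from 9 quadriceps muscles. Per the submitters' processing notes the tools were edgeR, limma, RSEM, cutadapt and CASAVA, with GRCm38 as the build; the sources used here do not give their roles or whether counting used strand. The table the authors deposited holds a normalized signal, called normalized counts per the file headers. Whole reads were recovered for 100% of 118044 values (relative tolerance 1e-06): each value is the reads plus 0.5, divided by a TMM-scaled library size and scaled as counts per 1e6 reads. Sequencing depth thus limits low genes, with 3 reads as the floor. As the signal is not a count, limma 3.58.1 (R 4.3.3) was fitted to log2(value + 0.5) over 3 group means with a mean-variance trend and 6 residual degrees of freedom, for the 13089 genes that reached 1 in 3 or more libraries, with Benjamini-Hochberg adjustment over them. All adjusted p values are limma's unless edgeR 4.0.16 or DESeq2 1.42.0, run on the recovered reads, is named. Intervals are 95% limma intervals. Counts at an unadjusted p under 0.05 are given without the share of all genes tested, so they do not set a list apart from other genes. Levels per kb use merged exons of the GENCODE annotation of GRCm38. Statistics are given in full for matrix genes called in at least 1 comparison. Of each further list they are given for up to 3 called genes per direction, by smallest p in KO_PBS against WT_PBS. Of the macrophage, fibroblast, and tendon and cartilage lists, 2 markers chosen by the same p are given with a log2 fold change. Other genes and the other marker lists are given by name, value or count. The genes and lists were chosen with earlier results of these data known. Ccn1 and Ccn5 were matched by identifier to Cyr61 and Wisp2. Numbers of mice within a group are names only.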

Additional observations from a re-analysis of the deposited data

How the results depend on the processing

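The 20 alternatives changed the added constant, the filter, the scaling, the trend, the groups in the fit, the tool, or left out 1 mouse. Over the 15 calls of single matrix genes they gave 299 values, of which 250 stayed past the threshold, 49 lost the call and 0 reversed. Without scaling factors 16 matrix genes rose and 0 fell in KO_PBS, and 0 fell in KO_secGAA against WT_PBS, as was also found without the trend (0) and with only 2 groups in the fit (0). DESeq2 called 1 matrix gene risen and 8 fallen in KO_secGAA against KO_PBS. Leaving out 1 mouse gave 5 to 16 risen and 0 to 2 fallen in KO_PBS against WT_PBS, 0 to 0 and 3 to 7 in KO_secGAA against KO_PBS, and 0 to 0 and 0 to 1 in KO_secGAA against WT_PBS. The genes of the 6 further lists, each counted once, gave 27 risen and 10 fallen in KO_PBS, 0 and 4 in KO_secGAA against KO_PBS, and 3 and 1 against WT_PBS. Without scaling factors the first became 57 and 2, the falls in the second 10 and the rises in the third 15. With 2 groups in the fit the falls in the second were 1. Quantile normalization gave 1 rise in the second, and DESeq2 gave 3 there and 10 rises and 4 falls in the third. The falls in the third were 0 with 0.1 added, 0 by limma voom and 2 without the trend. Leaving out 1 mouse gave 16 to 31 and 5 to 9, 0 to 2 and 0 to 3, and 1 to 5 and 0 to 1. Over all genes tested the counts were 1430 risen and 1437 fallen, 179 and 302, and 239 and 248. Without scaling factors they were 4466 and 518, 102 and 857, and 868 and 139, and 89.6% of the calls in KO_PBS were rises, against 49.9%. Without the trend the rises in KO_secGAA against KO_PBS were 96 and the falls 190, and the falls against WT_PBS 143. With 2 groups in the fit there were 111 rises in KO_secGAA against KO_PBS and 163 falls against WT_PBS. DESeq2 gave 350 rises in KO_secGAA against KO_PBS, and 487 rises and 535 falls against WT_PBS. Leaving out 1 mouse gave 909 to 1446 and 835 to 1401, 58 to 224 and 101 to 344, and 60 to 278 and 34 to 243. Fits without 1 mouse have fewer samples; for the other changes the cause was not tested. No paired analysis was possible because the labels give no replicate numbers, litters or days that tie mice across groups. With 3 mice a group and single-digit reads, low genes such as Timp1 in wild type are measured coarsely.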
